A study of Homo sapiens with 8 samples.

Results

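The clustered histone genes were read from 51 probe sets, out of 54675 on the array, that measure 45 genes. A probe set is a group of short oligonucleotides that together report 1 transcript signal. A probe set was taken where the platform annotation gave it a single gene symbol whose former name starts with HIST1H, HIST2H, HIST3H or HIST4H, or whose current name is that of a clustered H1, H2A, H2B, H3 or H4 gene. The 51 probe sets included 7 of linker histone H1, 11 of H2A, 14 of H2B, 9 of H3 and 10 of H4. A further 20 probe sets listed several clustered histone genes at once and were not taken.

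The study exposed 4 established human kidney cancer lines, ACHN, CAKI2, A498 and CAKI1, to 75 nM A939572 for 24 h and set each line against its own DMSO culture. A939572 inhibits stearoyl-CoA desaturase 1, an enzyme of monounsaturated fatty acid synthesis, and DMSO is the solvent. Each line gave 1 array per treatment, so 4 arrays stood against 4, and the labels name no genotype, age or separate cultures within a line. All lines were kept in the same serum-supplemented medium. PAX8, a renal lineage factor, had signals of 4080 to 5320 in DMSO and 4580 to 8280 with A939572. The renal factor PAX2 was at 40.3 and 42.6 in CAKI1, below the filter on dim probe sets given with the first test, CA9 was not analysed here, and the 2 leukocyte markers read, PTPRC and CD3E, had means below the filter, with signals of at most 35.7 and 76.8. Of 4 endothelial and 4 fibroblast markers 1 each was above the filter, PECAM1 (log2 difference -0.21 ± 0.20) and the collagen gene COL1A1, which fell by 1.04 ± 0.36 (limma adjusted p = 0.00312). The part of the latter in the histone results was not tested.

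Histones are the proteins around which DNA is wound. H2A, H2B, H3 and H4 form the core of the nucleosome, and H1 binds the linker DNA between nucleosomes. The clustered genes supply new histones during S phase. Most of their mRNAs end in a stem-loop bound by SLBP and carry no poly(A) tail, although some of these genes are also known to yield polyadenylated transcripts, for example in cells that leave the cycle. Arrays of this kind carry probes near the 3′ end of transcripts and are usually labelled from an oligo(dT) primer. The labels describe reverse transcription and in vitro transcription into biotin-labelled cRNA, and the primer is not given in the sources used here. A signal below may therefore be that of a tailed transcript, of an untailed one that was copied without a tail, or of both, which was not tested.

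Promoter sequences are shown for 3 genes, because they represent the largest rise, the risen H2A gene with the highest signal and the probe set with the highest signal of the 51, which did not pass the test. They are the 250 bases before the transcription start in RefSeq on GRCh38.p14, 5′ to 3′ on the gene's strand. Capitals mark the octamer ATTTGCAT known from H2B promoters, the CCAAT box CCAAT and the TATA box TATAAA, searched on both strands, with overlapping matches both marked.
H2BC15: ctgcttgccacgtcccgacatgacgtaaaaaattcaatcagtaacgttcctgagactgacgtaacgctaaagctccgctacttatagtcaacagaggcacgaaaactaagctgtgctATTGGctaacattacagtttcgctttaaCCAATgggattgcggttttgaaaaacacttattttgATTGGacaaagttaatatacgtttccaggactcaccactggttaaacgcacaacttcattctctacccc
H2AC6: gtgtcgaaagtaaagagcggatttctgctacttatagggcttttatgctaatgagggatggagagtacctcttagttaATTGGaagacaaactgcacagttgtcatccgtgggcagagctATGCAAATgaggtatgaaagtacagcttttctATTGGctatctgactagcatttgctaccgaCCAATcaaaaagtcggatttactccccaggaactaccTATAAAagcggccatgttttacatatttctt
H2BC12: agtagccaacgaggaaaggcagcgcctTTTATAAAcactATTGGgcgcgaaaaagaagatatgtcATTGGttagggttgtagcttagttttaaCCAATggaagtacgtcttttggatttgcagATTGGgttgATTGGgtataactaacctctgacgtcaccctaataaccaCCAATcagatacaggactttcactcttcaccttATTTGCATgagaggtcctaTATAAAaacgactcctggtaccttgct

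These stretches lie at chr6:27838319-27838568 (plus strand) for H2BC15, chr6:26123922-26124171 (plus strand) for H2AC6 and chr6:27146859-27147108 (minus strand) for H2BC12. H2BC12 held the octamer 46 bases before its start and TATAAA at 27 and 221 bases, with a further TATAAA match on the opposite strand, and H2AC6 held the octamer on the opposite strand at 130 bases and TATAAA at 31 bases. The H2BC15 stretch held CCAAT matches only. Over the 41 member genes with a promoter in the table, 38 on chromosome 6 and 3 on chromosome 1, the window of 250 bases before to 50 bases after the start held the octamer in 16 genes (39%), against 1.77% of 35116 promoters. All 16 were H2A (6 of 8) or H2B (10 of 13) genes. CCAAT was present in 36 of the 41 (34.6% of all promoters) and TATAAA in 28 (11.5%). Among the 9 genes with a risen probe set described next, 4 held the octamer, 7 CCAAT and 7 TATAAA. Among the 9 that were tested and did not pass, 4 held the octamer, 8 CCAAT and 4 TATAAA.

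Histone probe sets of 4 of the 5 classes rose with A939572. Of the 51, 21 were tested, and none of these fell. A probe set that lists 14 H4 genes, and so was not among the 51, fell by 1.07 ± 0.81 (205967_at, limma adjusted p = 0.00951). Of 21 probe sets whose mean level reached the filter, 9 rose, 3 of H2A, 3 of H2B, 1 of H3 and 2 of H4, with folds from 1.69 to 2.99. In the same fit 26.0% of 27307 probe sets passed, 13.0% higher and 13.0% lower. The test was limma with the cell line as a block on quantile normalized log2(signal + 16), with Benjamini-Hochberg adjustment at 0.05 over all probe sets tested. The filter was a mean over the 8 arrays of at least 6.41, equal to a signal of about 69.2. It is passed more easily by a probe set that is high in 1 group: 6 of the 21 had a DMSO mean below 6.41, and 4 of these 6 were among the 9, namely H2BC15, H2AC14 and both H4 probe sets, H4C11 and H4C5. With no filter, 4 of all 51 histone probe sets passed, 7.84% against 5.15% of all probe sets, each of them higher (H2BC15, H2AC6, H2BC5 and H3C6), while H4C11 (limma adjusted p = 0.072) and H4C5 (0.13) did not. Without the cell line as a block 0 histone probe sets passed, when 56 of all probe sets were higher and 38 lower. Neither count is a test of the histones as a group.

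**Figure D1:**
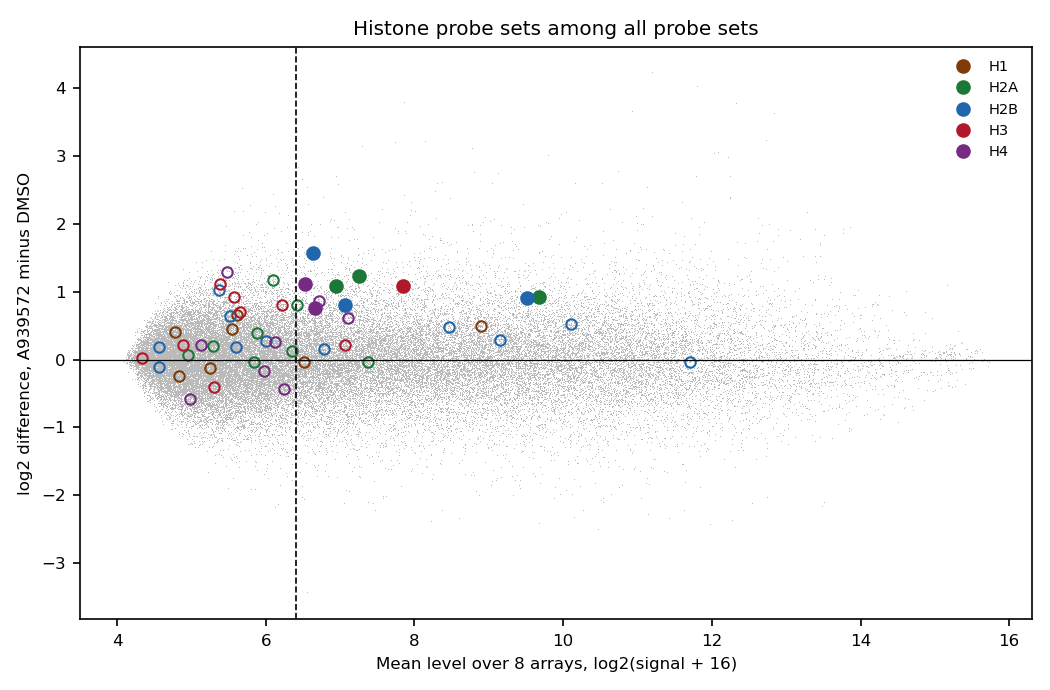
Mean level over the 8 arrays, log2(signal + 16), against the log2 difference of A939572 minus DMSO (mean of 4 lines) for all probe sets (grey points) and the 51 histone probe sets (circles, coloured by class; filled where the limma test was passed). The dashed line is the filter at 6.41, and the 9 filled circles all lie above 0.

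H2BC15, an H2B gene, had the largest rise among the 21 (probe set 207226_at). Its DMSO signals were 26.4 for ACHN, 38.6 for CAKI2, 85.4 for A498 and 36.4 for CAKI1, and with A939572 they were 184, 204, 145 and 104 in the same order. Every treated array lay above every DMSO array. The log2 difference was 1.58 ± 0.72 (SD, n = 4 lines), or 2.99-fold (limma adjusted p = 0.00577), with 2.33 for ACHN, 2.01 for CAKI2, 0.76 for A498 and 1.22 for CAKI1. Its DMSO mean of 5.85 lay below the filter, so the fold depends on the offset of 16, which understates changes of dim probe sets.

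H2AC6, an H2A gene, rose in a bright probe set (215071_s_at). Its DMSO signals were 600 for ACHN, 301 for CAKI2, 843 for A498 and 734 for CAKI1, and its A939572 signals 1480, 883, 1120 and 1090. The groups did not overlap, and CAKI2 was lowest in both. The log2 difference was 0.92 ± 0.56 (1.89-fold, limma adjusted p = 0.00904). H2BC5, an H2B gene, rose in 1 of its 2 probe sets (222067_x_at), with DMSO signals of 694, 459, 395 and 588 and A939572 signals of 984, 1410, 580 and 1230 in the order ACHN, CAKI2, A498 and CAKI1. The groups overlapped, since treated A498 stayed below untreated ACHN and CAKI1. The log2 difference was 0.91 ± 0.51 (limma adjusted p = 0.00787). The other probe set of H2BC5 had 0.52 ± 0.44, higher in 4 of 4 lines, and did not pass (limma adjusted p = 0.0516). It passed in 6 of 13 other settings, among them median centring (limma adjusted p = 0.0214) and the fit without A498 (0.0296).

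H3C6, which encodes canonical H3, had DMSO signals of 197 for ACHN, 60.7 for CAKI2, 146 for A498 and 235 for CAKI1, and A939572 signals of 393, 297, 222 and 393 (probe set 236278_at). The untreated CAKI1 array lay above the treated A498 array, so the groups overlapped, while each line was higher with the drug. The log2 difference was 1.08 ± 0.66 (limma adjusted p = 0.0108). The second probe set of H3C6 had 0.22 ± 0.41 and did not pass (limma adjusted p = 0.546), with -0.38 in CAKI1. H2BC15, H2AC6, H2BC5 and H3C6 kept their calls with each of the 4 lines left out in turn, with limma adjusted p of at most 0.0403.

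The other 5 calls were each lost with at least 1 line left out. H2AC17, an H2A gene, had DMSO signals of 154, 130, 113 and 16.9 in ACHN, CAKI2, A498 and CAKI1 and A939572 signals of 144, 362, 259 and 159, a log2 difference of 1.24 ± 1.00 (limma adjusted p = 0.0241). CAKI1 moved most (2.43) and ACHN did not move upward (-0.02). H2AC14 had DMSO signals of 144, 48.7, 112 and 24.1 and A939572 signals of 168, 163, 161 and 151, a difference of 1.09 ± 0.82 (limma adjusted p = 0.0303). Its treated arrays were nearly level, and its DMSO arrays spread widely below them. H2BC21, an H2B gene outside the large chromosome 6 cluster, had DMSO signals of 106, 63.6, 102 and 82.8 and A939572 signals of 221, 93, 168 and 172, a difference of 0.80 ± 0.25 (limma adjusted p = 0.0255). Only treated CAKI2 fell within the DMSO range.

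The H4 genes H4C11 and H4C5 encode the same core histone protein. H4C11 had DMSO signals of 41.4, 30.2, 84.1 and 49.3 and A939572 signals of 154, 87.3, 88.1 and 155 in the line order above, a log2 difference of 1.11 ± 0.66 (limma adjusted p = 0.0266), with no overlap and 0.18 in A498. H4C5 had 102, 66.2, 54.4 and 43.1 in DMSO and 165, 131, 99.8 and 75.7 with A939572, a difference of 0.76 ± 0.11 (limma adjusted p = 0.0461). H4C5 varied least over the lines of all 9, from 0.64 to 0.86, and its groups overlapped because the lines differed in level. Its call was lost with any line left out (limma adjusted p = 0.0758 to 0.128). Without CAKI1 the calls of H2AC17 (0.0805), H2AC14 (0.108), H2BC21 (0.0807) and H4C11 (0.0917) were lost too. Without CAKI2 those of H2AC17 (0.0806), H2AC14 (0.103) and H4C11 (0.0699) were lost. Without ACHN those of H2BC21 (0.107) and H4C11 (0.112), and without A498 those of H2AC17 (0.0634) and H2BC21 (0.066), were lost. The log2 differences of these 5 stayed at 0.72 or above in each such fit.

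**Figure D2:**
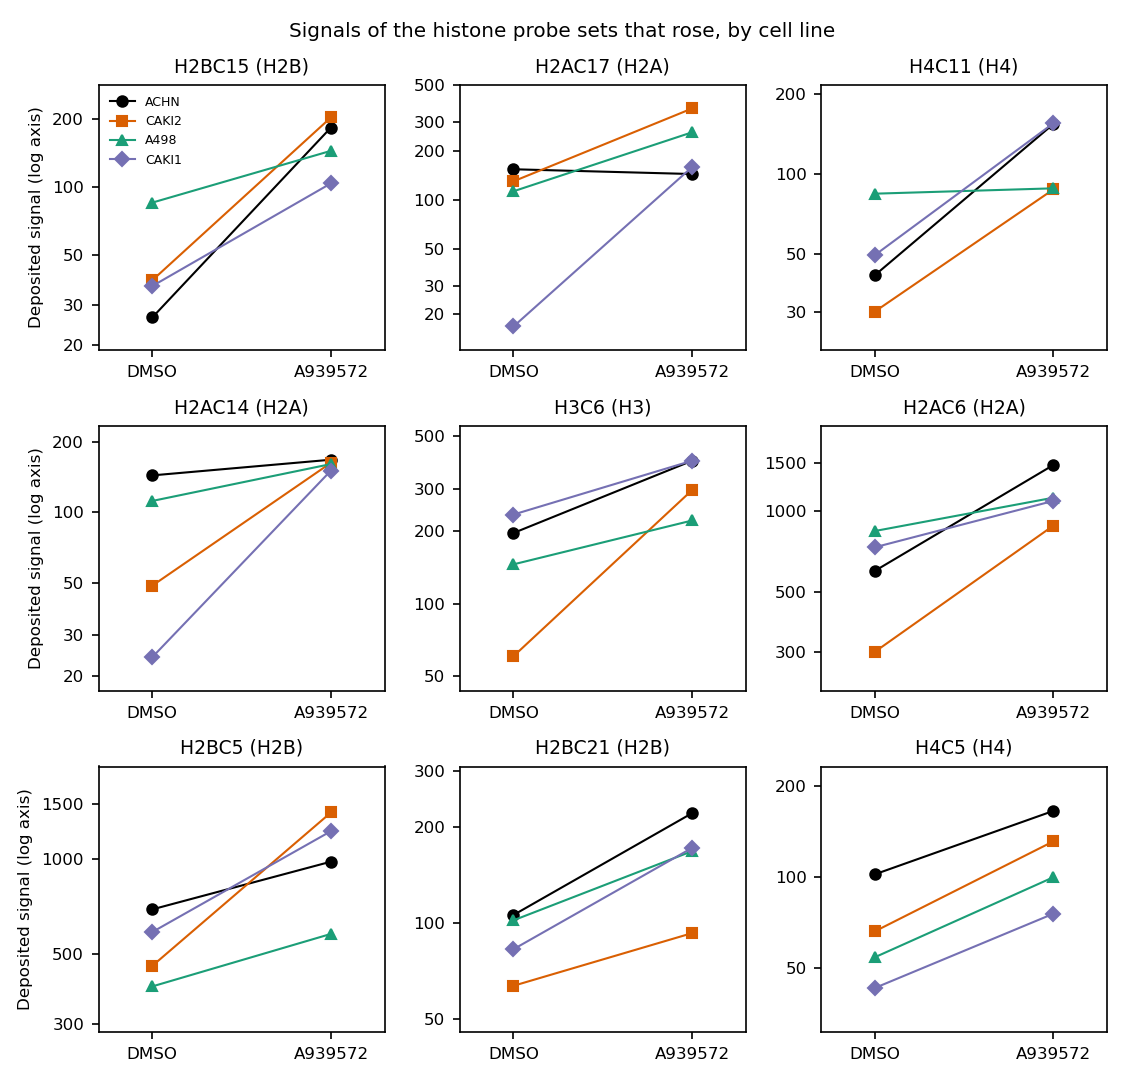
Deposited signals (log axis, each panel with its own range) in DMSO and with A939572 for the 9 histone probe sets that rose, with a line joining the 2 arrays of each cell line. ACHN in the H2AC17 panel, from 154 to 144, is the only line drawn downward.

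Neither of the 2 tested H1 probe sets passed. H1-2, a linker histone gene of most somatic cells, had signals of 213 to 602 in DMSO and 523 to 594 with A939572. Its log2 difference was 0.50 ± 0.55 (limma adjusted p = 0.106), with 1.20 in CAKI1 and -0.11 in A498. H1-3 had -0.04 ± 1.5, from -2.17 in A498 to 1.29 in CAKI1 (limma adjusted p = 0.965). Over all probe sets of a class, dim ones included, the median log2 difference was 0.41 for H1, 0.40 for H2A, 0.38 for H2B, 0.70 for H3 and 0.44 for H4. The H1 median was 0.12 without CAKI1, 0.65 without A498 and 0.17 at offset 64, and the H2A median 0.62 without CAKI2 and 0.21 at offset 64. At that offset the H4 median was 0.29. The median over all 51 was 0.41, with 40 above 0 and 11 below, beside a median of -0.01 over all 54613 probe sets other than controls. By line the median of the 51 was 0.39 for ACHN, 0.58 for CAKI2, 0.23 for A498 and 0.64 for CAKI1.

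H2BC12, an H2B gene reported to give polyadenylated transcripts, had the highest signals of the 51 probe sets. In DMSO they were 2880 for ACHN, 2760 for CAKI2, 5070 for A498 and 2990 for CAKI1 and with A939572 3580, 3150, 3370 and 3120. A498 was high in DMSO only, and the other arrays lay close together. The log2 difference was -0.03 ± 0.40 (limma adjusted p = 0.912). H2BC12 was 1 of 7 listed histone genes reported to be polyadenylated. In the main fit 2 of the 6 whose brightest probe set was tested rose, H2AC6 and H2BC21, with none lower. A separate fit on the brightest probe set of each gene called 14.7% of all genes higher and 15.9% lower. H2BC5 passed as higher in that fit too (limma adjusted p = 0.0483), so the count of 2 and these shares are from different fits. In the main fit H1-2 (0.50), H2BC5 in its brighter probe set (0.52) and H2BC4 (0.16, limma adjusted p = 0.677) did not pass. H2BC11 was too dim to be tested (0.19 ± 0.95).

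The remaining tested members did not pass either. H4C8 had 0.62 ± 0.62 (limma adjusted p = 0.117) and 0.86 ± 1.17 (0.143) in its 2 probe sets, both below 0 in A498 only. H2AC15 had 0.81 ± 0.58 (0.081) in its tested probe set, higher in 4 of 4 lines, and 0.07 ± 0.82 in a dim one, higher in 2. H2BC6 had 0.29 ± 0.34 and H2BC9 0.48 ± 0.54, with -0.07 and -0.02 in A498. H2AC25, an H2A gene on chromosome 1, had -0.04 ± 0.75 in its tested probe set, where its level differed mainly between lines. Its signals there were 47.3 and 18.2 in CAKI2, in DMSO and A939572, and between 140 and 486 on the other 6 arrays. A dim second probe set of H2AC25 (-0.04 ± 1.31) had its lowest DMSO signal in A498 (9.21) and not in CAKI2 (26.3).

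Of the 51 probe sets, 30 were too dim to be tested. Their log2 differences ran from -0.58 (H4C13) to 1.29 (H4C1), 22 above 0 and 8 below, with a median of 0.21. In 4 of the 30 every treated array lay above every DMSO array, namely H4C1, H2AC8 (1.18 ± 0.45), H2BC17 (1.02 ± 0.50) and H3C2 (0.80 ± 0.51), named after their values were seen. Their limma adjusted p with no filter was 0.0598, 0.054, 0.0859 and 0.187. No share over all probe sets too dim to be tested is given here, so these 4 cannot be set against a background. Among the 21 tested, 4 were separated in this way upward (H2AC6, H2AC14, H2BC15 and H4C11) and 0 downward, where the shares over all probe sets tested were 4.55% and 4.34%. The DMSO means of H2AC14, H2BC15 and H4C11 lay below the filter, so the 2 figures cannot be set against each other. The 2 probe sets of H1-6, the testis linker histone, differed in sign (0.45 ± 0.82 and -0.12 ± 1.35) and were both dim.

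**Figure D3:**
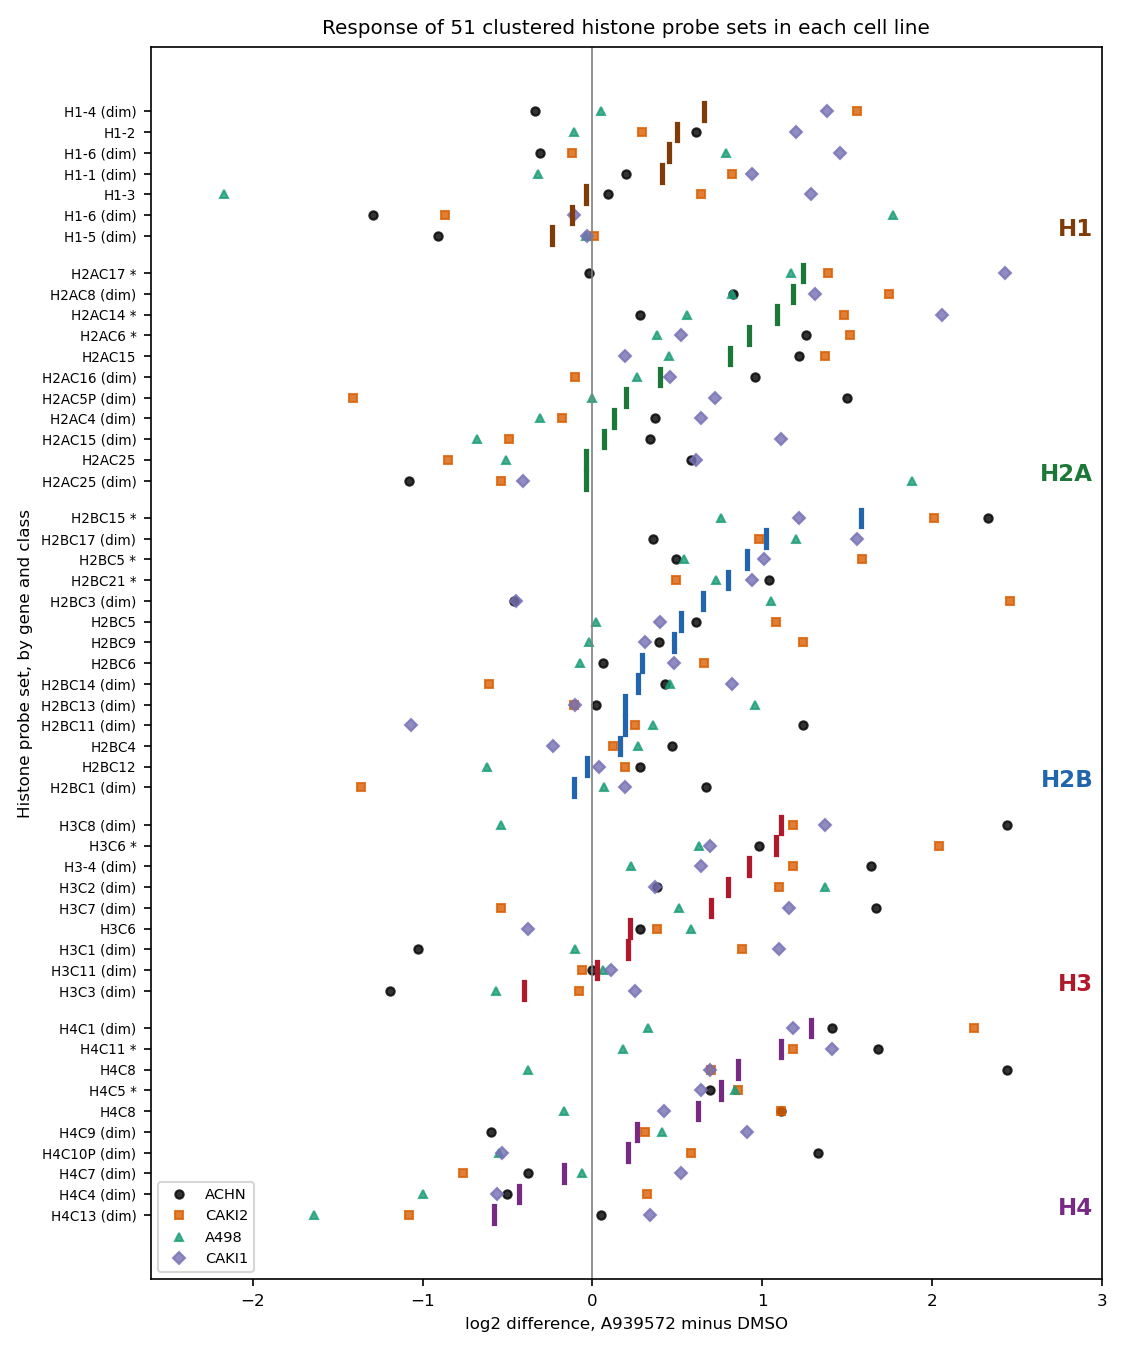
log2 difference of A939572 minus DMSO in each cell line (symbols) and its mean (vertical bar) for the 51 histone probe sets, grouped by class. An asterisk marks the 9 that rose, and "dim" the 30 below the filter. A498 points lie towards the left within many rows, as for H1-3 at -2.17.

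The size of the response differed between lines, with 1 array per treatment and so no test within a line. Among the 21 probe sets above the filter, the number at least 1.5-fold higher was 11 for ACHN, 15 for CAKI2, 5 for A498 and 12 for CAKI1. Over all tested probe sets the shares past 1.5-fold upward were 19.0%, 16.2%, 16.2% and 15.0%. The DMSO mean lay below the filter in 6 of the 21, against 785 of all 27307 tested. Such probe sets reach the filter through their treated arrays, so the upward counts cannot be set against these shares. At least 1.5-fold lower were 0 for ACHN, 1 for CAKI2 (H2AC25), 2 for A498 (H1-3 and H2BC12) and 0 for CAKI1, beside 18.4%, 16.5%, 16% and 15.1% of all tested probe sets. The lowest of the 4 counts upward was that of A498. Whether A498 differs from the other lines was not tested.

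Genes for H2A and H2B often lie side by side and share the stretch between them as a promoter. Among the members 6 pairs of an H2A and an H2B gene were neighbours in order along the chromosome, with both above the filter in 2. Strand and a shared promoter were not checked. H2BC3 was paired with H2AC4 and again with the pseudogene H2AC5P. H2AC6 had 0.92 ± 0.56 beside 0.16 ± 0.29 for its neighbour H2BC4. H2AC15 had 0.81 ± 0.58 beside 1.58 ± 0.72 for H2BC15. In these pairs 1 gene passed and the other did not, and the difference between neighbours was not tested. H2AC17 and the dim H2BC17 had 1.24 ± 1.00 and 1.02 ± 0.50, and H2AC14 and the dim H2BC14 had 1.09 ± 0.82 and 0.27 ± 0.62.

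Many histone genes are near-identical copies, which limits what a probe set can tell apart. The suffixes _x_at and _s_at mark probe sets with probes that can match several transcripts. They were carried by 12 of the 51 histone probe sets (23.5%, beside 28.4% of all) and by 9 of the 21 tested (42.9%). Of the 9 that rose, 5 carried them, namely H2AC6, H2AC14, H2BC5, H2BC21 and H4C11. These 5 values are uncertain as to the gene. The suffix alone does not settle the gene for the other 4 that rose. Histone probe sets with a plain _at suffix can list several genes, as 207046_at does with 14 H4 genes. When all such probe sets were left out, 4 of 16 tested histone probe sets were higher (25%, beside 10.2% of all tested), 3 of them among the 9. None was lower. The filter was set anew in that fit, so 16 were tested, where 12 without these suffixes were above it in the main fit.

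Other genes of histone supply fell more often than they rose. Replacement and variant histones are in many cases made outside S phase from genes with polyadenylated mRNAs. They had 5 of 9 tested genes lower and 0 higher, with a median of -0.54 (2 lower without _x_at and _s_at probe sets). H2AX, the variant phosphorylated at DNA breaks, had DMSO signals of 4670, 2160, 1600 and 1770 in ACHN, CAKI2, A498 and CAKI1 and A939572 signals of 1450, 803, 809 and 1090, with no overlap. It fell by 1.21 ± 0.46 on the log2 scale (limma adjusted p = 0.00126). H3-3A, which encodes H3.3, fell by 0.98 ± 0.47, H2AZ1 by 0.83 ± 0.10 and H2AZ2 by 0.64 ± 0.17. The H3-3A signals were only 353 to 502 in DMSO and 136 to 312 with A939572. The fifth was MACROH2A1 (-0.54 ± 0.18). All 5 were read from _s_at probe sets, whose probes can match several transcripts. The shares over all genes were 14.7% higher and 15.9% lower, as above.

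Among 18 tested genes of histone gene transcription and mRNA processing, 2 rose and 5 fell, with a median of -0.20. ZNF473, a zinc finger protein of histone pre-mRNA processing, had DMSO signals of 179, 188, 139 and 193 and A939572 signals of 290, 434, 383 and 574 in the line order above, with no overlap. It rose by 1.19 ± 0.37 (limma adjusted p = 0.00185). HINFP, a transcription factor of H4 genes, rose by 0.92 ± 0.29 (limma adjusted p = 0.00382). SLBP, which binds the stem-loop, had 6450, 7230, 7140 and 9690 in DMSO and 3550, 4570, 4160 and 7300 with A939572, and fell by 0.68 ± 0.22 (limma adjusted p = 0.00251). CCNE2, CDK2 and CCNE1, whose products activate the histone gene coactivator NPAT, fell by 1.71 ± 0.91, 0.98 ± 0.43 and 0.76 ± 0.32, and the cleavage factor gene CSTF2 fell by 0.62 ± 0.11. NPAT itself had 0.00 ± 0.22.

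Histone chaperones carry new histones to DNA. Of 22 such genes 13 fell and 0 rose, with a median of -0.59. CHAF1B and ASF1B, which serve assembly behind the replication fork, fell by 1.54 ± 0.57 and 1.21 ± 0.30, TONSL by 1.15 ± 0.75 and HJURP, the CENPA chaperone, by 1.01 ± 0.44. Of 20 S phase enzymes 19 fell and 0 rose, with a median of -1.40 (12 lower without _x_at and _s_at probe sets). CDC6 was the exception and had 0.62 ± 0.75, which passed as higher when arrays were centred on their medians or ACHN was left out. The largest falls there were GINS2 at -2.33 ± 0.57, MCM6 at -2.24 ± 0.57, MCM4 at -2.12 ± 0.42 and MCM3 at -1.99 ± 0.62.

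**Figure D4:**
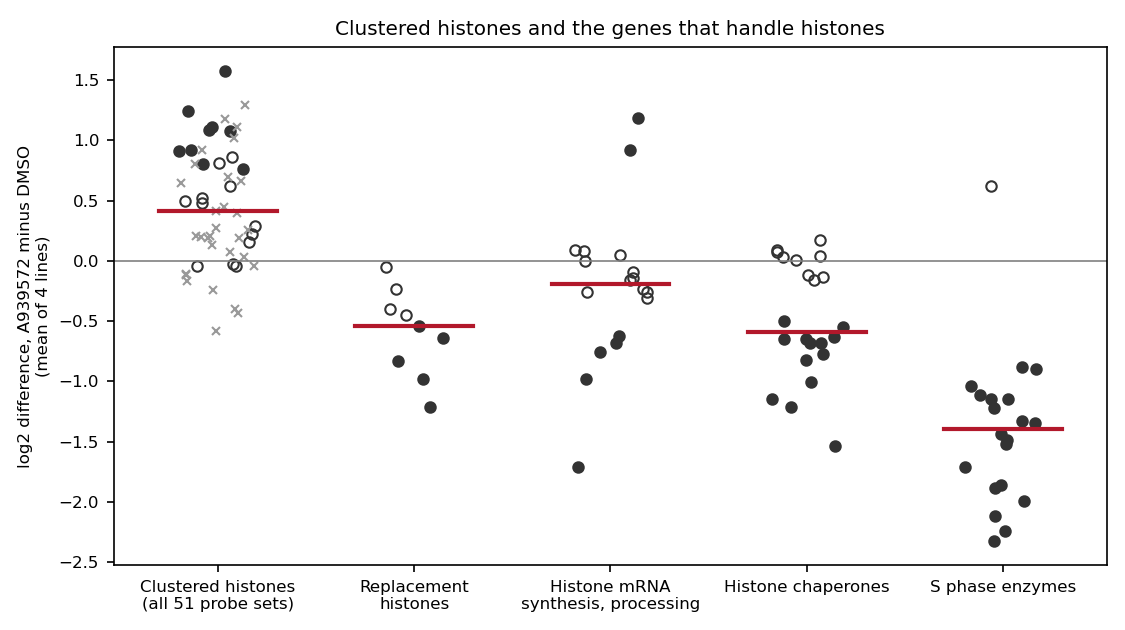
log2 difference of A939572 minus DMSO (mean of 4 lines) for all 51 clustered histone probe sets and for the tested genes of 4 other lists. Filled circles passed the limma test, open circles did not, crosses were too dim to be tested, and the red bar is the median, 0.41 for the histones and -1.40 for the S phase enzymes.

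Most controls for ribosomal RNA, which has no poly(A) tail, had higher signals on the treated arrays. The control probe sets for 18S ribosomal RNA differed on log2(signal + 16), without quantile normalization, by 0.58 ± 0.21 (3′ end), 0.23 ± 0.14 (middle) and 0.13 ± 0.05 (5′ end), higher in 4 of 4 lines each. Those for 28S had 2.35 ± 0.66 (5′ end) and 0.54 ± 0.29 (middle), also higher in 4 of 4 lines, and -0.43 ± 1.06 (3′ end). For ACTB the 3′ control had -0.78 ± 0.20 and the 5′ one -1.41 ± 0.37, and the log2 ratio between them was 0.64 ± 0.25 higher with A939572 (0.98 for ACHN, 0.64 for CAKI2, 0.42 for A498 and 0.51 for CAKI1). For GAPDH the 3′ control had -0.11 ± 0.28 and the 5′ one -0.19 ± 0.24, and their log2 ratio was only 0.08 ± 0.05 higher with A939572. The part of these shifts in the histone signals was not tested.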

How the data were processed

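RNA of 4 cell lines, each with A939572 and with DMSO, was measured on 8 arrays. Each probe set has 1 deposited intensity per array (linear scale), which the authors had scaled so that the mean after trimming 2% at each end is 500.1 on every array. The summarizing program is not given in the sources used here, and all 8 columns were used. After 62 control probe sets were left out, log2(signal + 16) was quantile normalized. Probe sets with a mean of at least 6.41 were tested (27307 of 54613) with limma 3.58.1 in R 4.3.3 (lmFit, eBayes with a mean-variance trend, 2-sided), with the cell line as a block, since treated and DMSO arrays come from the same line. The same-line arrays deviated together from the means of their treatments (correlation 0.775 to 0.828). The lines are the replicates. The p-values rest on the spread between them after limma drew each variance towards that of probe sets of similar level. They therefore do not follow the printed SDs alone. H4C5 had an SD of 0.11 and a fitted SE of 0.24, and H2AC17 had 1.00 and 0.34. An exact test on 4 pairs cannot go below 0.125, and the number of arrays limits precision (median SE 0.18). Symbols were matched by Entrez ID to GRCh38.p14 names for 41037 of 41091 probe sets with 1 symbol; 1801 had several and 11721 none. Genes of other lists were read from their brightest probe set.

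The members and lists were chosen with earlier results of these data known, and the list of polyadenylated histone genes comes from general knowledge. Named were histone probe sets past the threshold, the probe set with the highest signal in each class, genes whose probe sets differ in sign, the polyadenylated list, and up to 4 genes of each other list. The fit was tested on simulated data. Errors are SDs over the 4 lines.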

Additional observations from a re-analysis of the deposited data

Results flagged for a closer look

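H2BC12 in untreated A498 cells stood apart from the other DMSO arrays. Its normalized log2 level was 12.35, against 11.46 to 11.54 in the other 3 lines, a gap of 0.902 of the whole range, above Dixon's 95% critical value for 4 samples. Of 34 groups of 4 arrays checked for 17 histone probe sets it was the only one to stand apart in this way, and chance alone flags about 1 group in 20.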

How the results depend on the processing

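No histone probe set was lower past the threshold in the 14 other settings of the scaling, offset, filter, fit, probe sets or lines. The count of 9 higher became 4 with no filter, 3 with the stricter filter, 4 without _x_at and _s_at probe sets and 0 with no replicate block, that is, without the cell line as a block. That fit called 56 probe sets higher and 38 lower in all. It was 4 to 7 with a line left out, lowest without CAKI1 (4) and CAKI2 (5). With the probe sets of several histone symbols counted too, an alternative chosen after seeing the data, 17 were higher and 1 lower. Under the other scalings, offsets, variance model and 1 probe set per gene it was 8 to 10. The class median of H2A was 0.81 with 1 probe set per gene. That of H2B was 0.51 at offset 1 and 0.20 without _x_at and _s_at probe sets, and ran from 0.30 to 0.55 with a line left out. That of H3 was 1.03 at offset 1, 0.34 at offset 64 and 0.21 without _x_at and _s_at probe sets. Of 179 recomputed values of named probe sets, 139 kept direction and side of the threshold, 34 lost and 6 gained a call, and 0 reversed. Without the cell line block the other lists had 0 lower genes except 5 S phase enzymes. Centring arrays on their medians gave 60.4% of all calls higher, against 50% here. The causes were not tested. Dim signals limit the 30 untested members.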

Other observations

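Of the 20 probe sets that list several clustered histone genes, 13 were above the filter, 8 rose and 1 fell. Over all probe sets tested 13.0% were higher and 13.0% lower. In 4 of the 13 the DMSO mean lay below 6.41 (207046_at, 214522_x_at, 215779_s_at and 214472_at), and these 4 were all among the 8. They reached the filter through their treated arrays, so the count of 8 cannot be set against that share. The rises included a probe set for H2BC11 and H2BC8 (210387_at), with DMSO signals of 98.3 for ACHN, 141 for CAKI2, 75 for A498 and 105 for CAKI1 and A939572 signals of 223, 470, 351 and 318, 3.03-fold on the normalized scale (limma adjusted p = 0.000802). A probe set shared by 14 H4 genes (207046_at) had 102, 19.4, 43.5 and 13 in DMSO and 200, 176, 145 and 152 with A939572, 3.67-fold (limma adjusted p = 0.0029).

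The 1 fall was in another probe set that lists the same 14 H4 genes (205967_at), with far higher signals. It had 24300, 26500, 13800 and 26700 in DMSO and 15900, 15500, 7280 and 5370 with A939572, 0.475 of the DMSO level (limma adjusted p = 0.00951), lower in 4 of 4 lines and with -2.28 in CAKI1. These 2 probe sets of one annotation thus moved in opposite directions, and these probe sets were singled out after their values were seen. The deposited annotation does not tell which transcripts each one reads.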
